A study of Mus musculus with 11 samples.

Results

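Tryptophan tRNA with the CCA anticodon was followed in mouse embryonic fibroblasts that overexpress the tRNA methyltransferase METTL1 with its partner WDR4. The family comprised the 6 abundance entries named TrpCCA followed by a number, out of 301 tRNA entries in all. The entries were selected on these same RPM values, as a family of the m7G class whose abundance stayed level across the constructs. Their levels and differences are therefore given as a description, and no test result is read from them. The cells, labelled MEF Wt, carry SV40 T antigen and were stably transduced with METTL1-Mut and WDR4, with METTL1-Wt and WDR4, or with empty vector. Each construct gave 2 input libraries, made from small RNA treated with AlkB demethylases to remove other methylations and not cleaved. The labels describe stable clones, leave the change in the mutant unnamed, and do not say whether the libraries of a group came from separate cultures.

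Tryptophan is encoded by the codon UGG alone, and in the mouse cytosol that codon is read by tRNA with the anticodon CCA. tRNA-Trp belongs to the class of tRNAs in which METTL1 and WDR4 place N7-methylguanosine (m7G) in the variable loop, a mark known to protect tRNA from degradation. TRAC-seq, the assay of the series, maps that mark by chemical cleavage, and its uncleaved input libraries measure tRNA abundance. The unit of abundance is RPM, the reads of an entry in every 1000000 reads over all tRNA entries, so a value is a share of tRNA reads and not an amount per cell. It is not divided by length.

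The values imply 5405585 to 16003708 reads per library, fewest in empty vector library 2. At this depth the 95% Wilson interval of a TrpCCA value reached 0.760% to 1.86% of the value to either side, which covers counting error only. None of the 6 entries was at 0 in any library, and all 6 entered the fit, which had no filter on low values.

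The RefSeq annotation of GRCm38.p6, the assembly behind mm10, lists 8 nuclear genes for this tRNA, each 72 bases long. Of these, 4 lie on chromosome 11, 2 on chromosome 10 and 2 on chromosome 13. The pair on chromosome 13, n-TWcca3 at chr13:23498106-23498177 and n-TWcca4 at chr13:23506519-23506590, has a methionine and an arginine tRNA gene as nearest neighbours, 1903 and 2467 bases away. On chromosome 10, n-TWcca2 at chr10:91181412-91181483 lies within the span of Tmpo, which encodes the nuclear protein thymopoietin, and 614 bases from an aspartate tRNA gene. The other 7 overlap no other annotated gene. The numbers of the abundance entries could not be matched to these genes, so no entry is assigned to a place in the genome.

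TrpCCA5, the most abundant entry, had 4858 and 3641 RPM with mutant METTL1, 4070 and 4097 RPM with wild-type METTL1, and 4133 and 4301 RPM with empty vector. Mutant library 1 was the highest of the 6 and mutant library 2 the lowest, so the mutant pair lay on both sides of the other 4 libraries. The wild-type libraries stood close together, both just below the empty vector libraries.

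TrpCCA1, TrpCCA7 and TrpCCA2 gave almost the same values as TrpCCA5. In all 6 pairs among these 4 entries the difference was at most 0.104% in every library. In reads, the entries of a pair differed by 0 to 59, while separate counts of that size would differ by a Poisson SD of 216 to 364 reads. The spread over all 4 entries was 28 and 10 reads with mutant METTL1, 38 and 59 with wild-type METTL1, and 47 and 18 with empty vector. The 4 entries therefore differed by less than sampling noise and count here as 1 measurement, which leaves 3 separate measurements in the family. The treatment of reads that match more than 1 tRNA gene is not given in the sources.

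TrpCCA9 had 3226 and 2409 RPM with mutant METTL1, 2720 and 2740 RPM with wild-type METTL1, and 2631 and 2814 RPM with empty vector. The wild-type libraries lay between the empty vector libraries, and the mutant libraries again lay above and below all others. TrpCCA3, the least abundant entry, had 2120 and 1676 RPM with mutant METTL1, 2166 and 2118 RPM with wild-type METTL1, and 2101 and 2059 RPM with empty vector. Here both wild-type libraries were above both empty vector libraries, while mutant library 1 lay among them and mutant library 2 was the lowest of the 6.

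**Figure D1:**
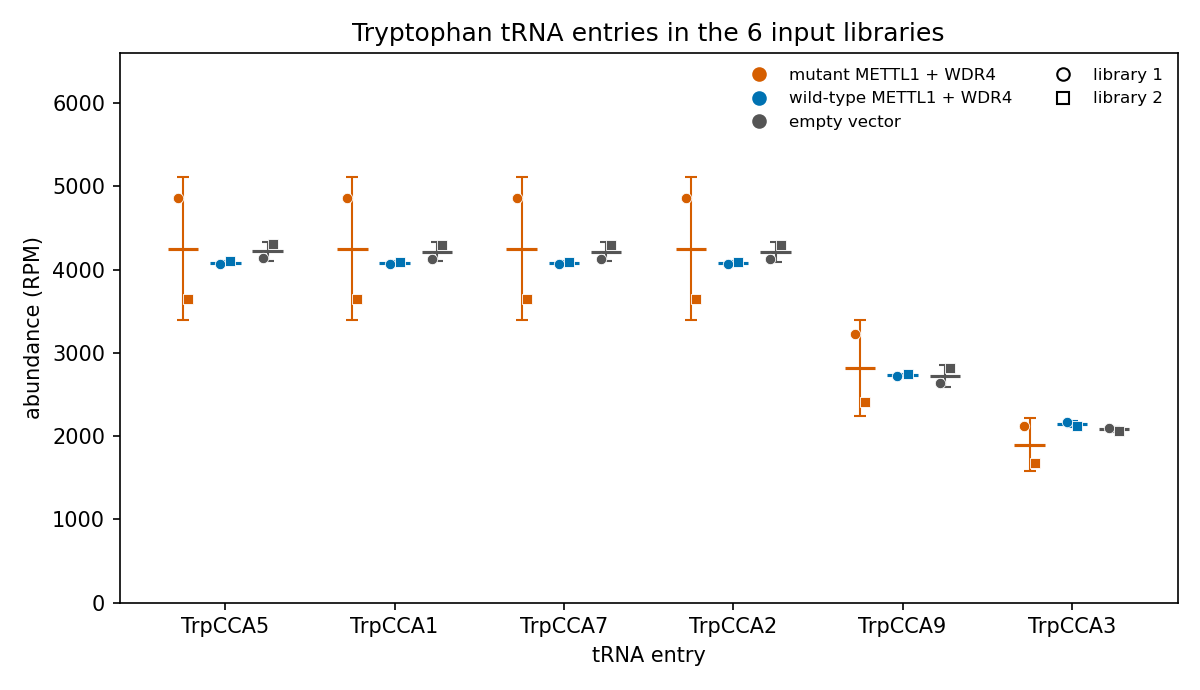
Abundance in RPM (vertical axis, from 0) of each tryptophan tRNA entry in the 6 input libraries, with the mean (horizontal line) and SD (bars, n = 2 libraries) of each construct. The 4 entries on the left repeat the same values, and in each entry the 2 mutant libraries stand far apart, at 4858 and 3641 RPM for TrpCCA5.

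With wild-type METTL1 the family stayed close to its level with empty vector. TrpCCA5 averaged 4083 ± 19.3 RPM with wild-type METTL1 and 4217 ± 119 RPM with empty vector (SD, n = 2 each), a log2 difference of −0.05 (limma SE 0.08). TrpCCA9 averaged 2730 ± 14.6 RPM with wild-type METTL1 and 2723 ± 129 RPM with empty vector, a log2 difference of 0.00 (SE 0.08). TrpCCA3 averaged 2142 ± 33.8 RPM with wild-type METTL1 and 2080 ± 29.8 RPM with empty vector, a log2 difference of 0.04 (SE 0.09).

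By limma with Benjamini-Hochberg adjustment over all 301 entries, 0 of the 6 members were called (adjusted p under 0.05) and 0 passed 0.05 unadjusted, while 37.5% of all entries were called. Since the family was picked for this, nothing is read from that count. The median log2 difference was −0.05 over the members and 0.16 over the 301 entries, whose quartiles were −0.00 and 0.40. The median over the members is the value of the 4 near-identical entries, while TrpCCA9 and TrpCCA3 were at 0.00 and 0.04. The wild-type and empty vector libraries did not overlap for 5 members, 4 lower and 1 higher with wild-type METTL1. Such separation was common, found for 64.5% of all entries, and the 4 lower ones are the near-identical entries. The wild-type libraries agreed closely, with a log2 gap of −0.01 for TrpCCA5 (library 1 over library 2). Of all entries 4.32% had a smaller gap, and the median size over all entries was 0.09. Between the empty vector libraries the gap was −0.06 for TrpCCA5, −0.10 for TrpCCA9 and 0.03 for TrpCCA3. There 23.3%, 44.3% and 7.43% of 296 entries had a smaller gap, and the median size was 0.11.

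With mutant METTL1 the family mean was level, but it averaged unlike libraries. TrpCCA5 averaged 4250 ± 860 RPM with mutant METTL1 and 4217 ± 119 RPM with empty vector (SD, n = 2 each), a log2 difference of −0.00 (limma SE 0.15). TrpCCA9 averaged 2817 ± 577 RPM with mutant METTL1 and 2723 ± 129 RPM with empty vector (log2 difference 0.03, SE 0.14). TrpCCA3 averaged 1898 ± 314 RPM with mutant METTL1 and 2080 ± 29.8 RPM with empty vector (log2 difference −0.14, SE 0.14).

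By the same limma rule 0 of 6 members were called for mutant METTL1 against empty vector, and 0 passed 0.05 unadjusted, while 8.31% of all entries were called. As the family was picked for staying level, nothing is read from these counts. The groups overlapped for all 6 members, and 48.2% of all entries did not overlap. Mutant library 1 exceeded library 2 by a log2 value of 0.42 for TrpCCA5, 0.42 for TrpCCA9 and 0.34 for TrpCCA3, against a median gap of 0.22 over the 301 entries in either direction. Of all entries, 75.4% to 81.4% had a smaller gap than the members. Without mutant library 2 the log2 ratio of the family sum was 0.19, and without mutant library 1 it was −0.22, against 0.00 with both. The level mean with mutant METTL1 thus rested on having both libraries.

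Mutant set against wild-type METTL1 gave a log2 difference of 0.04 for TrpCCA5 (SE 0.13), 0.03 for TrpCCA9 (SE 0.12) and −0.18 for TrpCCA3 (SE 0.12). Again 0 of 6 members were called by limma, 0 passed 0.05 unadjusted, and 15.0% of all entries were called. These counts too support nothing, since the family was picked on these values. The groups overlapped for all 6 members, and 58.5% of all entries did not overlap. The log2 ratio of the family sum was 0.03 with both mutant libraries, 0.22 without mutant library 2 and −0.18 without mutant library 1, values of a single mutant library against the wild-type pair that carry no test.

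**Figure D2:**
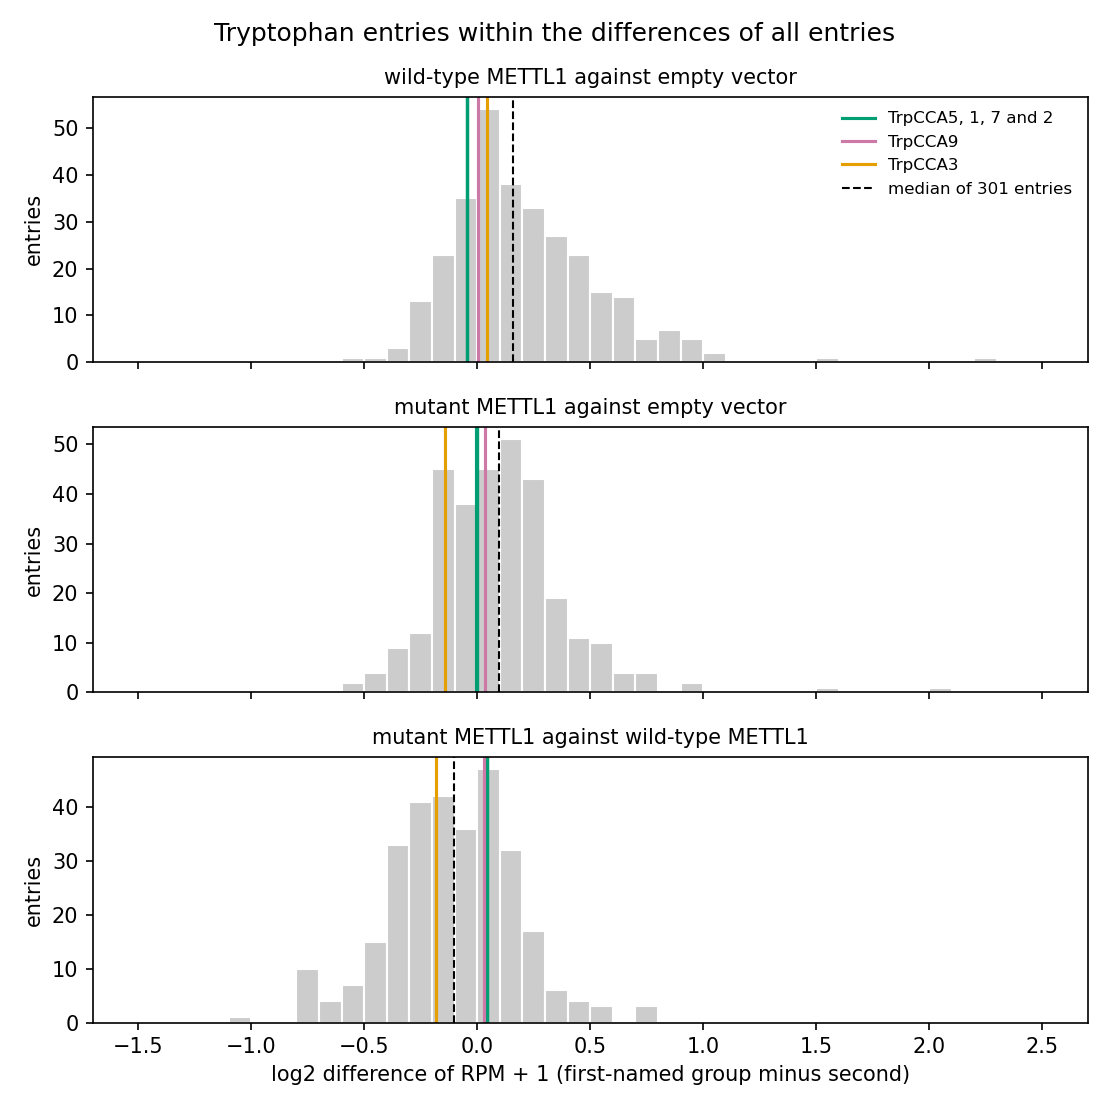
Histograms of the limma log2 difference in RPM + 1 (horizontal axis) of all 301 entries in each comparison, with the tryptophan entries as coloured lines and the median entry dashed. With wild-type METTL1 against empty vector the members lie from −0.05 to 0.04, below the median of 0.16, and TrpCCA3 lies apart from the others in both comparisons that involve mutant METTL1.

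With the mutant libraries included, the proportions within the family varied less between libraries than the levels did. Among the wild-type and empty vector libraries alone, TrpCCA3 varied more as a percentage of TrpCCA5 (47.9% to 53.2%) than in RPM (2059 to 2166). A ratio within a library does not depend on the total of that library. TrpCCA9 stood at 66.4% and 66.2% of TrpCCA5 with mutant METTL1, at 66.8% and 66.9% with wild-type METTL1, and at 63.7% and 65.4% with empty vector. The ratio was lowest in empty vector library 1, and the counting SD of each ratio was 0.397 to 0.682 percentage points, so the gap between empty vector library 2 and the mutant libraries is of the size of counting error. The mutant libraries, 1.33-fold apart in TrpCCA5 level, gave almost the same ratio.

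TrpCCA3 stood at 43.6% and 46.0% of TrpCCA5 with mutant METTL1, at 53.2% and 51.7% with wild-type METTL1, and at 50.8% and 47.9% with empty vector. Both mutant libraries were below both empty vector libraries, and both wild-type libraries were above them. The means were 44.8% ± 1.69 with mutant METTL1, 52.5% ± 1.08 with wild-type METTL1 and 49.4% ± 2.10 with empty vector (SD, n = 2 each). Counting SDs were 0.308 to 0.552 percentage points, so libraries of a group differed by more than counting error. For both minor entries the ratios did not overlap in any of the 3 comparisons. Ratios of entries outside the family to TrpCCA5 did not overlap for 72.5% of 295 entries with wild-type METTL1 against empty vector, for 30.2% with mutant METTL1 against empty vector, and for 43.1% with mutant against wild-type METTL1. Ratios that do not overlap between groups are thus common in these libraries, while the size of the gaps was not compared. They were looked at after the values were seen, and are not tested.

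**Figure D3:**
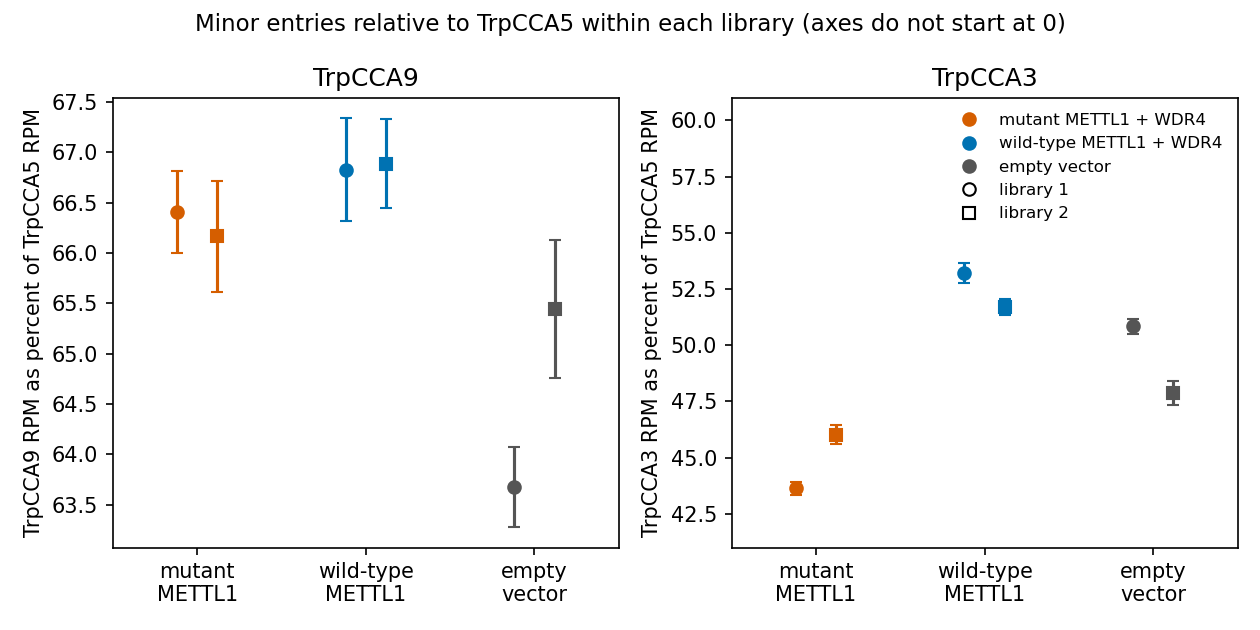
RPM of TrpCCA9 (left) and TrpCCA3 (right) as a percentage of TrpCCA5 RPM in the same library, by construct, with the counting SD of each ratio as bars (axes do not start at 0). TrpCCA3 lies between 43.6% and 46.0% in the mutant libraries, below the 47.9% and 50.8% of the empty vector libraries, which lie below the wild-type libraries.

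As a share of the family sum, TrpCCA3 made up 8.77% ± 0.305 with mutant METTL1, 10.1% ± 0.187 with wild-type METTL1 and 9.61% ± 0.392 with empty vector (SD, n = 2 each). TrpCCA9 made up 13.0% ± 0.0718, 12.9% ± 0.0345 and 12.6% ± 0.265 in the same constructs. The 4 near-identical entries held the rest. With those 4 counted once, the common value made up 47.4% ± 0.341 with mutant METTL1, 45.6% ± 0.213 with wild-type METTL1 and 46.7% ± 0.184 with empty vector.

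The 6 entries together held 24774 and 18648 RPM with mutant METTL1, 21158 and 21239 RPM with wild-type METTL1, and 21258 and 22070 RPM with empty vector. In shares of all tRNA reads these are 2.48% and 1.86% with mutant METTL1, 2.12% and 2.12% with wild-type METTL1, and 2.13% and 2.21% with empty vector. The 4 near-identical entries enter these sums and shares separately, and whether they hold the same reads is not known. By this sum TrpCCA was the family of rank 14 among 54 anticodon families, and between rank 13 and 16 in single libraries. The next families above were AlaAGC with 21645 RPM and LeuCAG with 26803 RPM, and the next below HisGTG with 21446 RPM and ValCAC with 20561 RPM, each a mean over 6 libraries. TrpCCA had 21525 ± 1971 RPM (SD over the 6 libraries), a spread that came mostly from the mutant libraries. The means of AlaAGC, HisGTG and ValCAC lay within it. In single libraries HisGTG was below TrpCCA with mutant METTL1 (17774 and 16160 RPM) and above it with wild-type METTL1 (23599 and 24905 RPM). With empty vector HisGTG was above TrpCCA in library 1 and below it in library 2. When near-identical entries of a family were counted once over the whole table, TrpCCA summed to 8979 RPM and had rank 27.

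Across the 6 libraries the log2 range of the summed TrpCCA abundance was 0.41, and 30 of the 47 families with at least 50 RPM on average had a smaller range. The range came from the mutant libraries, at 0.21 and −0.20 from the family's own mean, while the wild-type libraries were at −0.02 and −0.01 and the empty vector libraries at −0.01 and 0.04. The families most like TrpCCA, by the root mean square difference of these centred log2 values over the 6 libraries, were AlaTGC (0.06), AlaCGC (0.07) and MetCAT (0.10), out of 46. The entries outside the family most like TrpCCA5 were AlaCGC8, AlaTGC84 and AlaCGC10, each at 0.06 among 209 entries. These 3 differed by at most 0.116% in every library and belong to 1 near-identical group of 7 entries, 4 of AlaTGC and 3 of AlaCGC, so they and these families are not separate neighbours. The likeness rested on the shared gap between the mutant libraries. Without those libraries AlaTGC came at place 9, AlaCGC at place 13 and MetCAT at place 19, and TyrGTA (0.05), AsnGTT (0.05) and IleAAT (0.05) came first. The log2 ratio of summed RPM with wild-type METTL1 against empty vector was −0.16 in AlaTGC, −0.16 in AlaCGC and 0.11 in MetCAT. In TrpCCA it was −0.03.

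**Figure D4:**
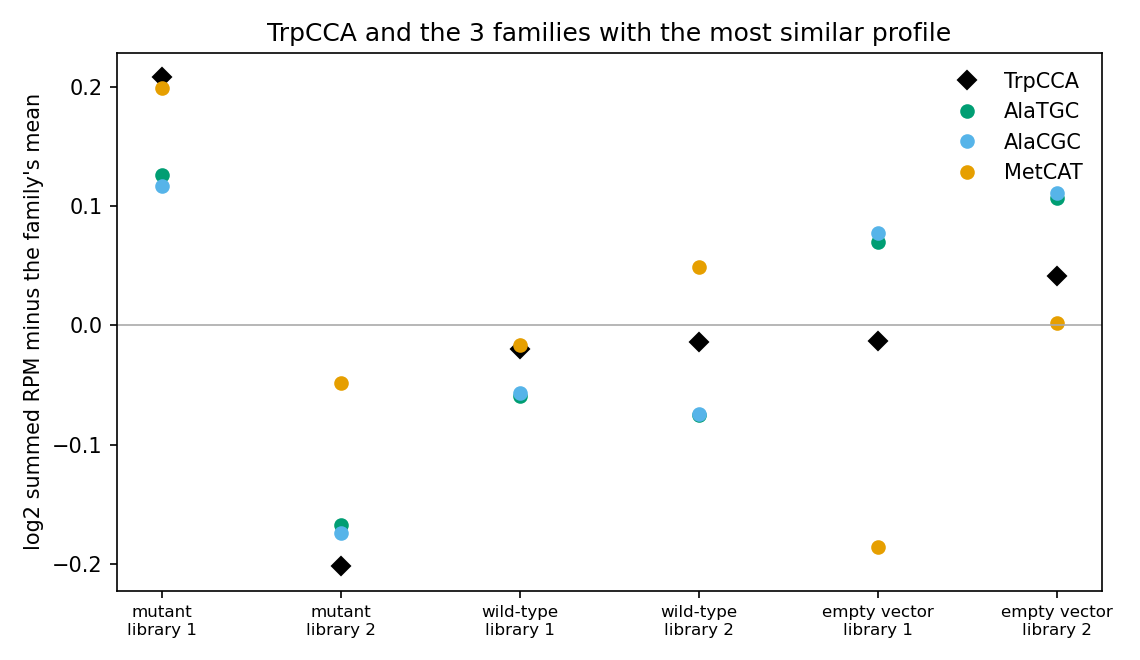
Log2 summed RPM of TrpCCA (diamonds) and of the 3 most similar families, each minus the family's own mean over the 6 libraries (vertical axis), by library. TrpCCA is at 0.21 and −0.20 in the mutant libraries and within 0.04 of its mean in the other 4, and the alanine families share the gap between the mutant libraries.

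The m7G class, to which tryptophan tRNA belongs, held families with log2 ratios of both signs by summed RPM. Of its 20 anticodon families, 11 had a positive and 9 a negative log2 ratio with wild-type METTL1 against empty vector. They ranged from −0.22 in ValTAC to 0.37 in ProAGG, with a median of 0.04, against 0.08 over all 54 families. AlaTGC and AlaCGC share a near-identical group of entries, and 11 of the 18 such groups in the whole table span more than 1 family. ProAGG and ProCGG also had close sums, 5311 and 5197 RPM with wild-type METTL1 and 4108 and 4043 RPM with empty vector. The 20 families are thus not all separate measurements. TrpCCA, at −0.03, took place 13 from the highest. With mutant METTL1 against empty vector 12 were positive and 8 negative, from −0.29 in AsnGTT to 0.27 in ArgTCT, with a median of 0.01, as over all 54 families. TrpCCA, at 0.00, took place 11. With mutant against wild-type METTL1 8 were positive and 12 negative, from −0.35 in LysTTT to 0.29 in AlaAGC. The median was −0.06, as over all 54 families, and TrpCCA, at 0.03, took place 7, among the 8 positive families. The comparisons share libraries and are not independent of each other.

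**Figure D5:**
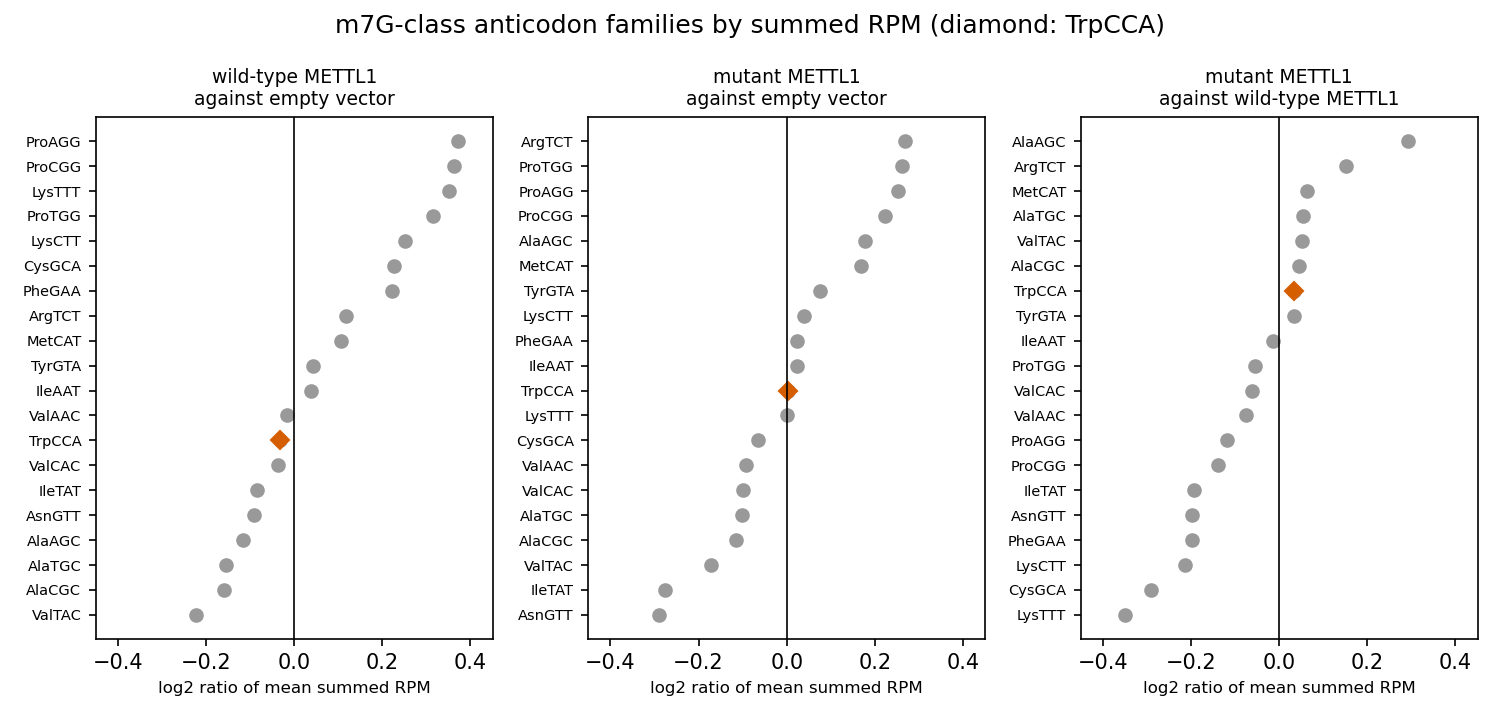
Log2 ratio of mean summed RPM (horizontal axis) of the 20 m7G-class anticodon families in each comparison, in order of size, with TrpCCA as a diamond. TrpCCA lies at −0.03, 0.00 and 0.03 in the panels from left to right, at places 13, 11 and 7 from the highest.

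Of the other amino acids that, like tryptophan, are read mainly by a single anticodon, cysteine and aspartate had most of their entries called higher with wild-type METTL1 against empty vector. In CysGCA, of the m7G class, 20 of 28 entries rose and none fell by limma, with a summed 18812 ± 495 RPM with wild-type METTL1 and 16087 ± 575 RPM with empty vector (SD, n = 2 each). The CysGCA count was 10 without wild-type library 2 and 13 when libraries were centred on the median entry. In AspGTC, outside the class, 4 of 4 entries rose, or 3 of 4 under that centring. Of the rest, 2 of 13 MetCAT, 2 of 7 AsnGTT, 1 of 7 TyrGTA, 1 of 3 PheGAA and 1 of 3 HisGTG entries rose and none fell, against 91 of all 301 entries higher and 22 lower. The AsnGTT, TyrGTA, PheGAA and HisGTG calls were lost under the centring, and MetCAT had 6 higher and 1 lower without empty vector library 1.

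With mutant METTL1 against empty vector 4 of 4 AspGTC, 1 of 13 MetCAT and 1 of 28 CysGCA entries rose and the other 4 families had none called, while 22 of all 301 entries were higher and 3 lower. The AspGTC count was 0 without either empty vector library. The CysGCA call was lost without either empty vector library, without mutant library 2, with the replicate block, under the centring and at a minimum of 10 RPM. HisGTG summed to 16967 ± 1141 RPM with mutant METTL1 and 23120 ± 1913 RPM with empty vector, with no entry called. At a minimum of 10 RPM, and also in a common fit of all libraries, 1 HisGTG entry was called lower. Mutant against wild-type METTL1 gave 2 of 3 HisGTG and 6 of 28 CysGCA entries lower. It also gave 2 of 13 MetCAT, 1 of 3 PheGAA and 1 of 4 AspGTC entries lower. None of these families had an entry higher, and AsnGTT and TyrGTA had none called, against 34 lower and 11 higher of all 301 entries. The HisGTG calls against wild type were lost with the replicate block. The table also lists an entry each for CysACA and HisATG, which were not taken into these families. Whether TrpCCA differed from these families in its response was not tested.

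The suppressor-type entry SupTTA1, whose anticodon pairs with a stop codon, averaged 4.78 ± 0.431 RPM with mutant METTL1, 2.50 ± 0.363 RPM with wild-type METTL1 and 4.12 ± 0.708 RPM with empty vector (SD, n = 2 each). Its level was far below that of any TrpCCA entry.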

How the data were processed

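The submitters' processing notes name Bowtie, Trim Galore and bedtools, without versions, and the build mm10. The authors deposited abundance as RPM, scaled to 1000000 reads over all tRNA entries, in 2 tables with identical empty vector columns. The deposited RPM values are whole multiples of the value of 1 read within 0.01 reads, which gave the implied totals and reads, used only for counting error.

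Differences are log2(RPM + 1) with a pseudocount of 1, fitted in limma 3.58.1 under R 4.3.3 over all 301 entries with a variance trend, on the 4 libraries of each comparison, and Benjamini-Hochberg adjustment. The log2 ratio of a family sum uses means of summed RPM with no pseudocount. P-values behind calls measure only the spread between libraries, and where a library was left out, its lone partner was assumed to vary like the other group. The script was tested on simulated data with larger changes than those of the TrpCCA entries and less spread than between the mutant libraries. Entries within 1% of each other in all 6 libraries are called near-identical.

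The family, the lists and the tests were chosen with earlier results of these data known. Named are all 6 TrpCCA entries, the 3 families and 3 entries most like them, the next 2 families above and below, 7 comparison families and SupTTA. The 5 cleaved libraries were not used. The planned edgeR and TMM alternatives on implied reads were not run. The authors' files hold RPM and no counts, and too few low values exist to check the reads recovered from them.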

Additional observations from a re-analysis of the deposited data

How the results depend on the processing

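The alternatives were pseudocounts of 0.1 and 10, a minimum of 10 RPM, a common fit, no variance trend, centring on the median entry, a replicate block and leaving out each library. The count of TrpCCA members called was 0 in each of these against empty vector for both constructs, and between 0 and 5 for mutant against wild-type METTL1 when a library was left out. In such fits a group of 1 library is assumed to vary like the other group, and the members were picked on these values, so these counts support nothing. Leaving out a library gave log2 ratios of the family sum of −0.0581 to −0.00406 for wild type and −0.22 to 0.19 for mutant against empty vector, and −0.18 to 0.22 for mutant against wild type; the other alternatives stayed within the replicate spread. Near-identical entries counted once, an alternative chosen after seeing the data, put TrpCCA9 at 31.4%, 30.5% and 30.2% and TrpCCA3 at 21.2%, 23.9% and 23.1% of the family with mutant METTL1, wild-type METTL1 and empty vector, and the family at rank 27. By mean RPM per entry its rank was 16, against 14 by sum. These shifts follow from counting 4 entries as 1 or as a mean.

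Over the whole table, calls for wild type against empty vector numbered 113 (91 higher, 22 lower), 54 under centring (51 higher, 3 lower), 71 in the common fit and 52 to 142 without single libraries. For mutant against empty vector they numbered 25, against 16 under centring, 13 with the replicate block and 6 to 30 without single libraries, and for mutant against wild type 45, against 25 with the block and 3 to 130. The deviations of same-numbered libraries from their group means had correlations of 0.16, −0.28 and −0.05 over 243 entries. This check cannot show whether same-numbered libraries were prepared together. With the replicate block 0 TrpCCA members were called in each comparison, which supports nothing, as the members were picked on these values.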
